A study of Caenorhabditis elegans with 6 samples.

Results

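The genes that were consistently higher in L1 larvae after *elt-2* RNAi were taken by a rule on read counts. They were selected on these values alone. A gene was kept when each of the 3 *elt-2* RNAi libraries held at least 20 counts and when its lowest CPM (the count divided by the library total and multiplied by 1000000) among the *elt-2* RNAi libraries was at least 2 times its highest CPM among the Control libraries. Of the 20351 genes in the table, 7490 met the count minimum and 15 met the whole rule, which is 0.200% of those 7490. The libraries came from N2 animals, the wild-type laboratory strain of *C. elegans*. Populations of approximately 10000 mothers were fed *elt-2* RNAi bacteria (the *elt-2* RNAi group, 3 libraries) or empty vector bacteria (the Control group, 3 libraries) for 24 hours from Day 1 of adulthood. Their embryos then hatched overnight in S-Basal, a salt buffer without food, and RNA was taken from whole larvae as 3SEQ libraries, which read the 3' end of poly-A RNA. The 3 replicates of a group, stated to be biological triplicates, are called A, B and C. Because the larvae hatched without food, both groups are starved first-stage larvae, and because whole worms were sequenced, a change in 1 tissue is diluted by the others. For the same reason, fewer cells of a type and less RNA per cell cannot be told apart.

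*elt-2* encodes a GATA transcription factor expressed in the intestine, where it activates genes for digestion, nutrient uptake and defence. Several of the 15 genes belong to known families. *hrg-2* and *hrg-3* are heme-responsive genes: *C. elegans* cannot make heme, takes it up from food through the intestine and passes it on to other tissues and to the embryo. *ugt-21* and *ugt-29* encode UDP-glycosyltransferases, enzymes that attach sugars to small lipophilic molecules. *cpr-3* encodes a cathepsin B-like cysteine protease, *clec-197* a protein with a C-type lectin-like domain, and *nhr-2* a nuclear hormone receptor. *dct-8* is named for control by the FOXO factor DAF-16 and an effect on germline tumours, and *praf-3* belongs to the family of prenylated Rab acceptors. No role is given here for F58E6.11, F15B9.6, T24E12.11 and C47D12.4. R03D7.3 and C49F5.9 are annotated as pseudogenes, so 13 of the 15 genes are protein-coding.

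The libraries held 14378960, 19558355 and 22124319 counts in the *elt-2* RNAi replicates A, B and C, and 13700707, 19945971 and 17584345 in the Control replicates. Between 79.5% and 84.7% of a library fell on its 100 most abundant genes. TMM normalization in edgeR, which scales libraries by the bulk of the genes, differed from the library total, with factors between 0.964 and 1.39 in the *elt-2* RNAi libraries and between 0.616 (Control B) and 1.20 in the Control libraries. *elt-2* itself (C33D3.1) had 21, 34 and 44 counts in the *elt-2* RNAi libraries and 32, 40 and 21 counts in the Control libraries, with overlapping CPM (log2 fold change -0.48 ± 0.46 (SE), adjusted p = 0.660, edgeR). The *elt-2* counts did not separate the groups in these libraries. At 21 to 44 counts per library they are an imprecise measure of the knockdown, and nothing is concluded about it from them. A level of 3 counts corresponds to 0.136 to 0.219 CPM in these libraries, and this level was used as the floor.

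After *elt-2* RNAi the set comprised a pair of heme-responsive genes, enzymes of sugar conjugation, a protease, a lectin-like gene, an embryonic nuclear receptor and genes with no stated role. Their mean CPM was between 2.78 (*praf-3*) and 12.7 (R03D7.3) times the Control mean, except for *clec-197*, which had no Control counts and only a lower bound. Summed over the 15 genes, the level was 84.1, 77.4 and 65.9 CPM in the *elt-2* RNAi libraries and 20.1, 14.5 and 15.8 CPM in the Control libraries. These values use library totals. With TMM scaling the sums were closer, 60.6, 68.0 and 68.4 in the *elt-2* RNAi libraries and 16.7, 23.6 and 17.8 in the Control libraries. Because the rule used the comparison of the 2 groups, the levels, fold changes and calls of the 15 genes are given as a description, and nothing is read from the test for them. All 15 passed the edgeR expression filter. Their median log2 fold change was 2.10 (*elt-2* RNAi over Control, TMM scaling), where the median of the 10063 genes tested was 0.06. The edgeR quasi-likelihood test called 11 of the 15 higher at an adjusted p of 0.1, beside 0.199% of all genes tested. The exceptions were *dct-8*, *ugt-21*, *ugt-29* and *praf-3*. Without 1 library fewer were called: 7 without Control A, 5 without Control B, 2 without Control C, 5 without *elt-2* RNAi A, 3 without *elt-2* RNAi B and 4 without *elt-2* RNAi C. By construction the groups did not overlap in any of the 15, where all *elt-2* RNAi values lay above all Control values in 10.4% of the 7490 genes. Neither count is read as support, since the rule chose the genes on these libraries. With the rule turned round, 97 genes were lower, 1.49% of the 6521 genes with at least 20 counts in each Control library. The set depended on single libraries. Since leaving out a library relaxes the rule, the number of genes could only stay or increase: it was 388 without Control A, 240 without *elt-2* RNAi C, 60 without *elt-2* RNAi A, 26 without *elt-2* RNAi B, 23 without Control C and 18 without Control B.

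The genes were expressed at low to moderate levels. Mean CPM in the *elt-2* RNAi libraries ranged between 1.51 (*ugt-21*) and 17.2 (*dct-8*), and the median was 3.00 for the 15 genes and 6.62 for the 7490. Replicates varied unequally among the genes. The coefficient of variation among the 3 *elt-2* RNAi libraries was 8.37% for *praf-3* and 51.1% for *hrg-3*, with a median of 28.2% for the 15 genes and 35.1% for the 7490. The rule used the lowest *elt-2* RNAi value and so favours genes that vary little, and the 2 medians are not read as a difference. The highest *elt-2* RNAi value was in replicate A for 7 genes, in B for 5 and in C for 3. Counting error is large at these levels. For 9 of the 15 genes the exact 95% Poisson interval of the lowest *elt-2* RNAi value lay above that of the highest Control value. For C49F5.9, T24E12.11, *cpr-3*, *ugt-21*, *ugt-29* and C47D12.4 these intervals overlapped. The rule had already required these values to differ 2-fold, so this count is no support either. The intervals cover counting error only, since reads without molecular identifiers are not independent molecules.

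**Figure D1:**
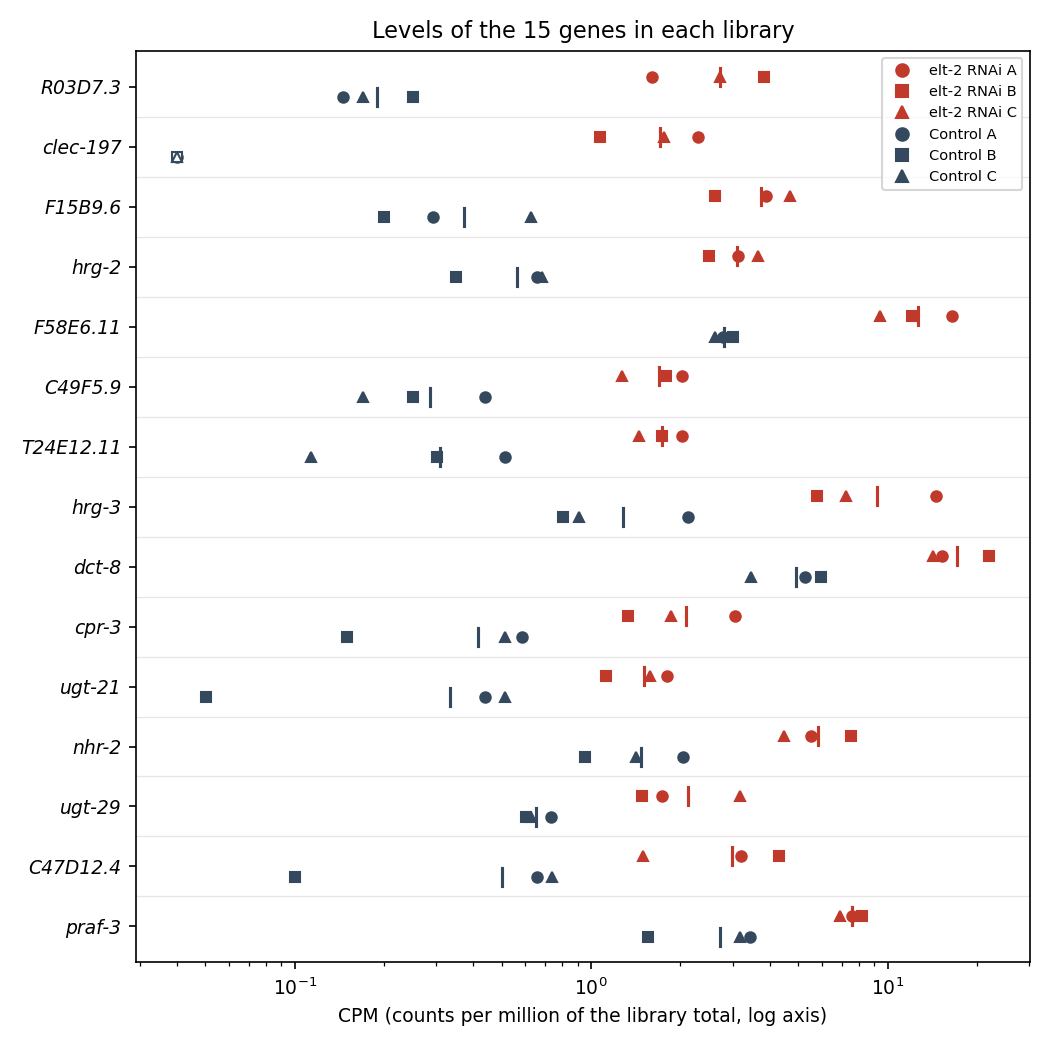
CPM (log axis) of the 15 genes in each library, with elt-2 RNAi libraries in red above Control libraries in blue, a symbol for each replicate letter and a short line at each group mean. The red and blue values are separate in every row, and the open symbols of *clec-197* at the left edge stand for 0 counts in the 3 Control libraries.

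Among the heme-responsive genes, the mean level of *hrg-3* after *elt-2* RNAi was 7.19 times the Control mean. *hrg-3* (F58E6.7) encodes a small secreted peptide that carries heme from the mother's intestine to the embryo and that is known to be made when heme is scarce. It had 209, 113 and 160 counts in the *elt-2* RNAi libraries, which is 14.5, 5.78 and 7.23 CPM, and 29, 16 and 16 counts in the Control libraries, which is 2.12, 0.802 and 0.910 CPM. Replicate A was the highest library in each group, and the lowest *elt-2* RNAi value was 2.73 times the highest Control value. The log2 fold change was 2.48 ± 0.43 (SE). *hrg-2* (K01D12.14) encodes a membrane protein of the hypodermis, the worm's epidermis, which is also known to be induced when heme is low. It had 45, 49 and 81 counts in the *elt-2* RNAi libraries (3.13, 2.51 and 3.66 CPM) and 9, 7 and 12 counts in the Control libraries (0.657, 0.351 and 0.682 CPM). Its lowest *elt-2* RNAi value was 3.67 times the highest Control value, and the log2 fold change was 2.11 ± 0.44 (SE).

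Other genes of heme handling were compared, in a list assembled after the 15 genes were known. *hrg-1*, an intestinal heme importer, had 14.3, 6.24 and 10.98 CPM in the *elt-2* RNAi libraries and 3.65, 2.96 and 6.82 CPM in the Control libraries. The groups overlapped by Control C alone, and the gene was not called (log2 fold change 0.80, standard error 0.45, adjusted p = 0.443, Benjamini-Hochberg adjustment of edgeR's quasi-likelihood p). *hrg-7*, a secreted protein related to aspartic proteases that signals heme state between intestine and neurons, had 75.2, 32.3 and 37.8 CPM in the *elt-2* RNAi libraries and 17.7, 8.87 and 32.6 CPM in the Control libraries. The lowest *elt-2* RNAi value was 0.988 times the highest Control value (log2 fold change 0.88, standard error 0.51, adjusted p = 0.454, same edgeR test). *mrp-5*, an intestinal heme exporter, had 28.2, 41.4 and 16.54 CPM in the *elt-2* RNAi libraries and 20.4, 12.83 and 14.6 CPM in the Control libraries (log2 fold change 0.45, standard error 0.43, adjusted p = 0.668, same edgeR test). *hrg-4*, another heme importer, had 0, 0 and 1 counts in the *elt-2* RNAi libraries and 5, 2 and 3 in the Control libraries, too few to be tested. *hrg-10*, a paralogue of the heme trafficking gene *hrg-9*, ran the other way with a large spread: it had 11, 338 and 10 counts in the *elt-2* RNAi libraries and 7, 1194 and 575 counts in the Control libraries (log2 fold change -3.05, standard error 1.55, adjusted p = 0.406, same edgeR test). The high values were in replicate B of both groups and in Control C. Of the 7 genes named *hrg* outside the set, 3 were tested, 2 had a positive log2 fold change and 0 were called by edgeR (0 at an unadjusted p of 0.05, 0 by DESeq2), where 0.199% and 2.61% of all genes tested were called higher and lower by edgeR.

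*hrg-2* lies between *cdr-4* and *cdr-7* in the annotation. The *cdr* genes encode glutathione S-transferase-like proteins to which HRG-2 is related, and their first member is known for its response to cadmium. *cdr-4* had 28, 32 and 37 counts in the *elt-2* RNAi libraries and 18, 33 and 49 in the Control libraries, and *cdr-7* had 10, 7 and 4 against 10, 11 and 9 in the Control libraries. In both genes the groups overlapped in CPM. Of the 6 *cdr* genes in the table, 4 were tested by edgeR and 0 were called in either direction (1 was lower at an unadjusted p of 0.05, and 0 were called by DESeq2).

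**Figure D2:**
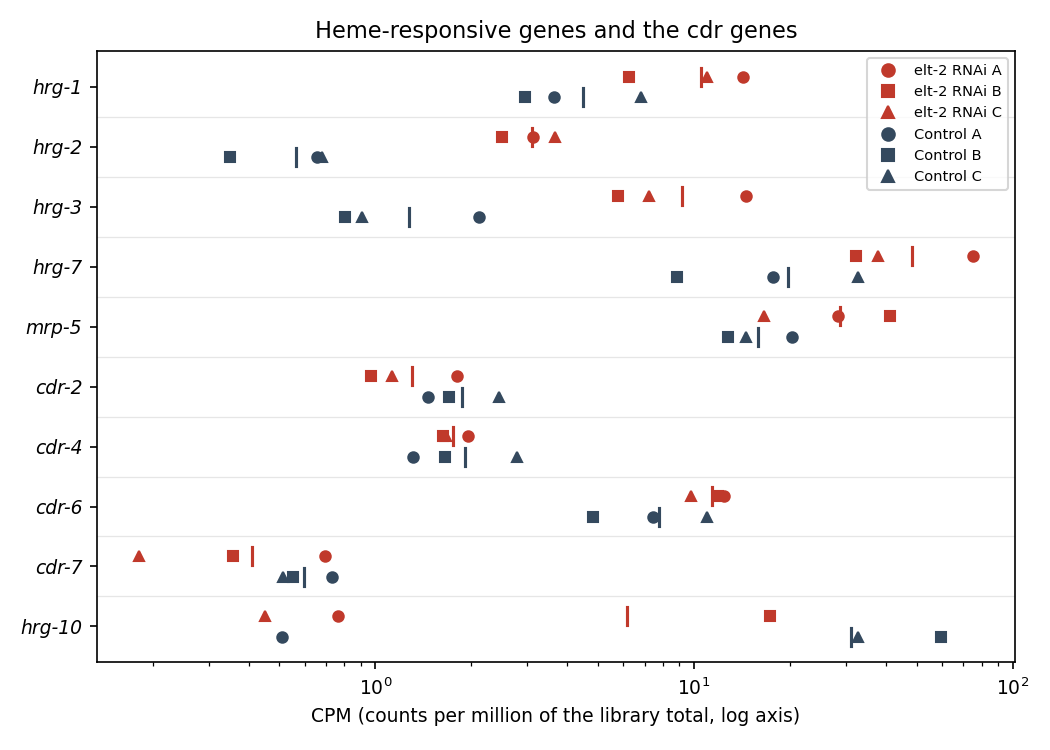
CPM (log axis) of heme-responsive genes, the heme exporter gene mrp-5 and the cdr genes in each library, elt-2 RNAi in red above Control in blue, with a short line at each group mean. The groups are separate for *hrg-2* and *hrg-3*, and they overlap for *hrg-1*, *hrg-7*, *hrg-10* and *mrp-5*.

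*hrg-3* and F58E6.11 are neighbours, and they are the only adjacent pair among the 15. In WBcel235 they lie on opposite strands of chromosome V and overlap by 93 bases at their 3' ends, which is the part of a transcript that 3SEQ reads. F58E6.11 had 237, 237 and 208 counts in the *elt-2* RNAi libraries (16.482, 12.1 and 9.40 CPM) and 38, 60 and 46 counts in the Control libraries (2.77, 3.01 and 2.62 CPM). Its lowest *elt-2* RNAi value was 3.13 times the highest Control value, with a log2 fold change of 1.67 ± 0.39 (SE). Whether reads were counted by strand is not given in the sources used here, so reads in the overlap could have been assigned to either gene, and the 2 genes are not taken as separate observations. The ratio of the 2 genes was not constant: *hrg-3* had fewer counts than F58E6.11 in every library, with 209 against 237 in *elt-2* RNAi A and 16 against 60 in Control B.

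The 2 UDP-glycosyltransferase genes were both near the count minimum. *ugt-21* (C33A12.6) had 26, 22 and 35 counts in the *elt-2* RNAi libraries (1.81, 1.12 and 1.58 CPM) and 6, 1 and 9 counts in the Control libraries (0.438, 0.0501 and 0.512 CPM). *ugt-29* (Y49C4A.8) had 25, 29 and 70 counts in the *elt-2* RNAi libraries (1.74, 1.48 and 3.16 CPM) and 10, 12 and 11 counts in the Control libraries (0.730, 0.602 and 0.626 CPM), so that replicate C stood above the other *elt-2* RNAi libraries. Their log2 fold changes were 1.87 (standard error 0.59) and 1.35 (standard error 0.52). Without *elt-2* RNAi C the log2 fold change of *ugt-29* was 0.76. Among the other *ugt* genes 30 were tested and 14 had a positive log2 fold change. Of these, edgeR called 0 higher (3 at an unadjusted p of 0.05, 0 by DESeq2) and 2 lower, where 0.199% and 2.61% of all genes tested were called higher and lower. The genes called lower were *ugt-22* (log2 fold change -2.94, adjusted p = 0.0274) and *ugt-17* (log2 fold change -1.94, adjusted p = 0.0772, edgeR's quasi-likelihood test for both). Without 1 library their adjusted p reached 0.114 and 0.308 in edgeR, both without Control C. *ugt-17* was also not called without any one of the *elt-2* RNAi libraries. *ugt-13* and *ugt-26*, neither of which met the 2-fold rule, also had separate groups in CPM. With the 2 members this makes 4 of the 15 *ugt* genes with the count minimum, beside 10.4% of all 7490 such genes. Nothing is read from this count, since the members were chosen for separate groups. *ugt-26* had 4.80, 3.48 and 3.75 CPM in the *elt-2* RNAi libraries and 2.41, 0.752 and 0.967 CPM in the Control libraries.

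*clec-197* (C49C3.12) was the gene with no Control counts. It had 33, 21 and 39 counts in the *elt-2* RNAi libraries, which is 2.30, 1.07 and 1.76 CPM, and 0 counts in each Control library. With the Control libraries set to the floor of 3 counts per library, its mean was at least 9.50-fold higher, and its lowest *elt-2* RNAi value was at least 4.90 times the highest Control value. C-type lectin-like proteins bind sugars in other animals, and many of the worm's *clec* genes are known to respond to infection. Among the other *clec* genes 34 were tested. Of these, edgeR called 0 higher (3 at an unadjusted p of 0.05, 3 by DESeq2) and 11 lower, beside 0.199% and 2.61% of all genes tested. The lower calls of *clec-17*, *clec-47*, *clec-49*, *clec-50* and *clec-52* held without any one library. That of *clec-66* was kept in 3 of the 6 fits that left out 1 library. Those of *clec-62*, *clec-65*, *clec-72*, *clec-82* and *clec-146* were each kept in 1. Among the genes called lower, *clec-50* had 4.17, 4.91 and 8.95 CPM in the *elt-2* RNAi libraries and 59.0, 99.3 and 104.4 CPM in the Control libraries (log2 fold change -4.30, standard error 0.66, adjusted p = 0.0138, edgeR's quasi-likelihood test). The neighbouring gene *clec-198* had 1, 0 and 3 counts in the *elt-2* RNAi libraries and 1, 2 and 4 in the Control libraries.

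*cpr-3* (T10H4.12) was the cathepsin B-like gene of the set. It had 44, 26 and 41 counts in the *elt-2* RNAi libraries (3.06, 1.33 and 1.85 CPM) and 8, 3 and 9 counts in the Control libraries (0.584, 0.1504 and 0.512 CPM), a log2 fold change of 1.97 ± 0.50 (SE). The 6 other *cpr* genes tested included 5 that edgeR called lower, *cpr-1*, *cpr-2*, *cpr-5*, *cpr-6* and *cpr-9*, beside 2.61% of all genes tested. The calls of *cpr-5* and *cpr-6* held without any one library, while those of *cpr-1*, *cpr-2* and *cpr-9* were lost without *elt-2* RNAi B, those of *cpr-1* and *cpr-2* also without *elt-2* RNAi C, and that of *cpr-2* also without *elt-2* RNAi A or Control B. *cpr-5* had 6.40, 4.60 and 8.36 CPM in the *elt-2* RNAi libraries and 73.6, 107 and 116 CPM in the Control libraries (log2 fold change -4.40, standard error 0.60, adjusted p = 0.0105, edgeR's quasi-likelihood test). *cpr-6* had 4.80, 7.98 and 3.66 CPM against 24.6, 19.8 and 25.2 CPM in the Control libraries (log2 fold change -2.50, adjusted p = 0.0241, same edgeR test). *cpr-4* was not called and its sign depended on the scaling, with a log2 fold change of -0.35 under TMM and 0.12 under library size. These genes are paralogues, and how reads that fit several genes were treated in counting is not given in the sources used here.

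**Figure D3:**
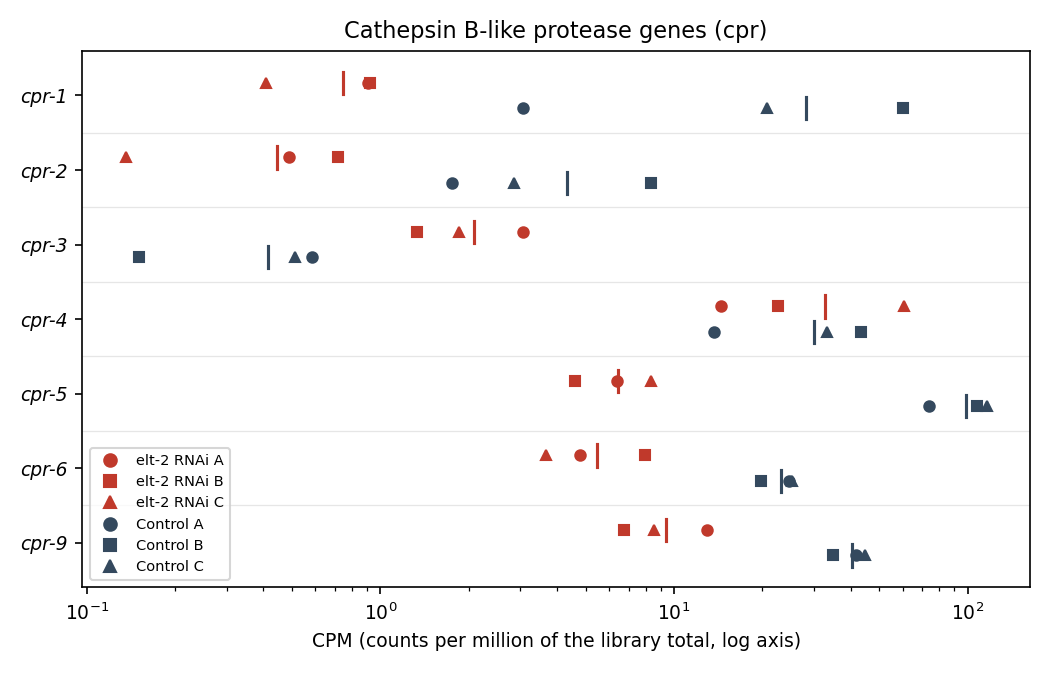
CPM (log axis) of the 7 tested cathepsin B-like protease genes in each library, elt-2 RNAi in red above Control in blue, with a short line at each group mean. The red values lie to the right of the blue values for *cpr-3*, to the left for *cpr-1*, *cpr-2*, *cpr-5*, *cpr-6* and *cpr-9*, and among them for *cpr-4*.

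*nhr-2* (C32F10.6), on chromosome I, encodes a nuclear receptor known to be expressed in the early embryo. It had 79, 147 and 99 counts in the *elt-2* RNAi libraries (5.49, 7.52 and 4.47 CPM) and 28, 19 and 25 counts in the Control libraries (2.04, 0.953 and 1.42 CPM). The log2 fold change was 1.64 ± 0.37 (SE). Of the *nhr* genes, 120 were tested and 55 had a positive log2 fold change, *nhr-2* included. Outside the set edgeR called 0 of them higher (2 at an unadjusted p of 0.05, 0 by DESeq2) and 2 lower, *nhr-80* and *nhr-121*, beside 0.199% and 2.61% of all genes tested. The call of *nhr-80* was kept only without Control A among the fits that left out 1 library. Since *nhr-2* is an embryonic gene, a list of embryonic genes, drawn up for the early embryo, was set beside it. Of its 10 genes 4 passed the filter, 3 of these had a positive log2 fold change and edgeR called 0 (1 at an unadjusted p of 0.05, 1 by DESeq2). The summed level of the 10 genes was 73.8, 88.9 and 30.9 CPM in the *elt-2* RNAi libraries and 57.3, 23.9 and 26.4 CPM in the Control libraries. It came mostly from *hch-1*, which encodes a protease for hatching from the eggshell, so the sum does not measure early embryonic RNA. *end-1*, a GATA factor that specifies the endoderm, had 27, 39 and 12 counts in the *elt-2* RNAi libraries and 6, 5 and 3 in the Control libraries (log2 fold change 1.92, standard error 0.59, adjusted p = 0.164, edgeR's quasi-likelihood test). *med-1* was at 0 counts in all 6 libraries, and *end-3*, *tbx-37* and *sdz-1* were at 2 counts or fewer in each. The part of embryonic RNA in the level of *nhr-2* was not tested.

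*dct-8* (F56D6.10) was the most abundant gene of the set. It had 15.2, 21.99 and 14.2 CPM in the *elt-2* RNAi libraries and 5.26, 5.97 and 3.47 CPM in the Control libraries. Its log2 fold change was 1.33 ± 0.46 (SE). With TMM scaling its lowest *elt-2* RNAi value was 1.13 times the highest Control value, which was in Control B, and 2.39 times with library totals. Of the DAF-16 and starvation genes listed, 7 of 14 were tested, 0 had a positive log2 fold change and 2 were called lower by edgeR, beside 2.61% of all genes tested. *praf-3* (D2096.2) had the lowest coefficient of variation of the set among the *elt-2* RNAi libraries, though not among the Control libraries, with 109, 160 and 153 counts in the *elt-2* RNAi libraries (7.58, 8.18 and 6.92 CPM) and 47, 31 and 56 counts in the Control libraries (3.43, 1.55 and 3.18 CPM). Prenylated Rab acceptors are known from mammals as membrane proteins that act in vesicle traffic. *praf-3* had the smallest log2 fold change of the 15, 1.14 ± 0.35 (SE). D2096.9, which overlaps it by 20 bases on the opposite strand, had 16, 7 and 8 counts in the *elt-2* RNAi libraries and 21, 10 and 11 in the Control libraries.

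Among the genes without a named function, F15B9.6 had 3.89, 2.61 and 4.70 CPM in the *elt-2* RNAi libraries and 0.292, 0.201 and 0.626 CPM in the Control libraries, where it had 4, 4 and 11 counts. Its log2 fold change was 2.94 ± 0.54 (SE). T24E12.11 had 29, 34 and 32 counts in the *elt-2* RNAi libraries and 7, 6 and 2 counts in the Control libraries. T24E12.13, whose identifier comes from the same clone, had 28, 48 and 14 counts against 1, 1 and 0 in the Control libraries, and it missed the set only by the count minimum in *elt-2* RNAi C. C47D12.4 had 46, 84 and 33 counts in the *elt-2* RNAi libraries and 9, 2 and 13 counts in the Control libraries. The log2 fold changes of T24E12.11 and C47D12.4 were 2.10 (standard error 0.53) and 2.26 (standard error 0.58).

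The set held 2 pseudogenes. R03D7.3, on chromosome II, had 23, 75 and 60 counts in the *elt-2* RNAi libraries (1.60, 3.83 and 2.71 CPM) and 2, 5 and 3 counts in the Control libraries (0.146, 0.251 and 0.171 CPM). Its lowest *elt-2* RNAi value was 6.38 times the highest Control value with library totals and 2.83 times with TMM scaling. Its flanking genes R03D7.2 and *tceb-3* were not called and overlapped between the groups. C49F5.9, on chromosome X, had 29, 35 and 28 counts in the *elt-2* RNAi libraries and 6, 5 and 3 counts in the Control libraries, a log2 fold change of 2.16 ± 0.49 (SE). A pseudogene can share reads with the gene it derives from, and this was not examined because the reads and the genome were not used here.

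Separation depended on the scaling. With TMM scaling all 15 genes still had every *elt-2* RNAi value above every Control value, where this held for 8.34% of the 7490 genes. Nothing is read from this contrast, since the rule chose the 15 on these libraries. Of the 52 genes with a ratio between 1.5 and 2 by library totals, 44 also stayed separate with TMM. Among the 15, 9 kept a ratio of 2 or more. The genes below 2 were F58E6.11 (1.998), C47D12.4 (1.85), *ugt-21* (1.71), *praf-3* (1.52), *ugt-29* (1.28) and *dct-8* (1.13). Under the same rule with TMM the genes *dhs-8*, F32H2.6 and F26B1.1 entered, so that 12 genes met it. In edgeR without TMM, that is with library totals, the median over all genes tested was 0.42 and that over the 15 genes 2.46.

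**Figure D4:**
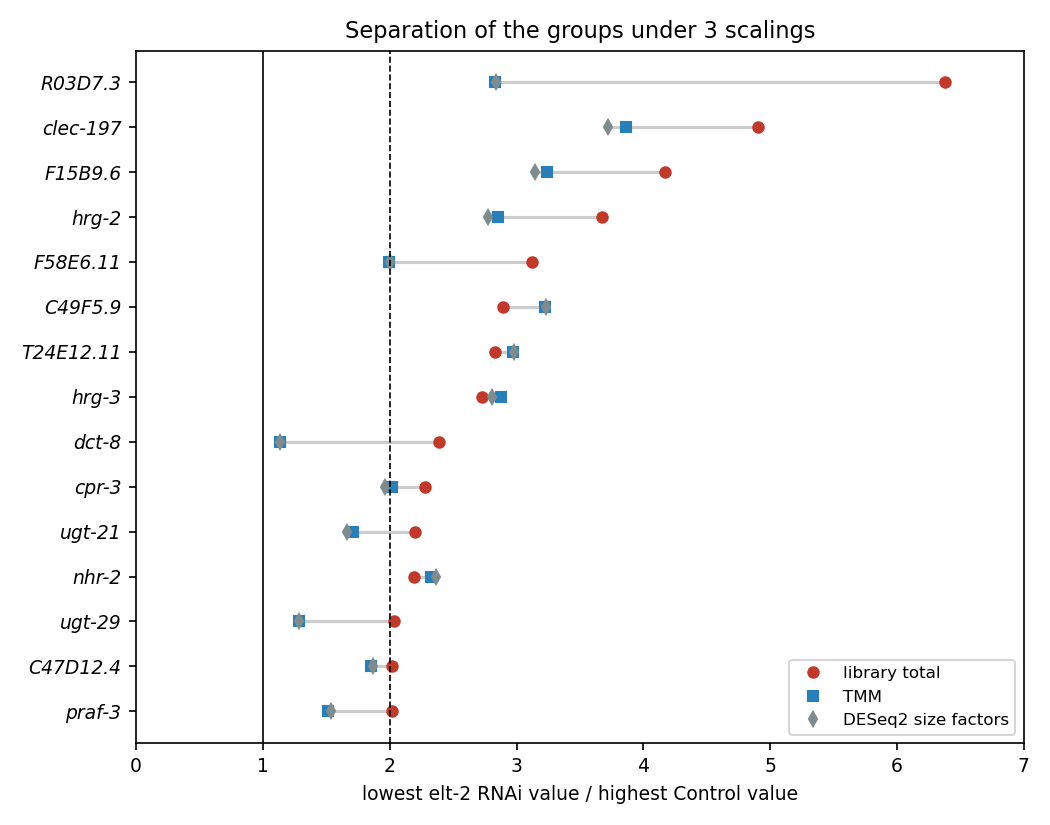
Ratio of the lowest elt-2 RNAi value to the highest Control value for the 15 genes with the library total, TMM and DESeq2 size factors as the scaling. The solid line marks equal values and the dashed line a ratio of 2, and all points lie to the right of the solid line, with 6 genes left of the dashed line under TMM; the value of *clec-197* is a lower bound.

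The threshold of 2 did not mark a gap. Just inside it were *ugt-29* (2.03), C47D12.4 (2.02) and *praf-3* (2.02), and just outside it were B0019.2 (1.99), *rnst-2* (1.89) and *dhs-8* (1.87). Between 1.5 and 2 there were 52 genes, of which edgeR called 4 higher, beside 0.199% of all genes tested. These 52 were picked by the same ratio on the same libraries, so nothing is read from their calls. A further 125 genes met the fold but had fewer than 20 counts in at least 1 *elt-2* RNAi library.

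**Figure D5:**
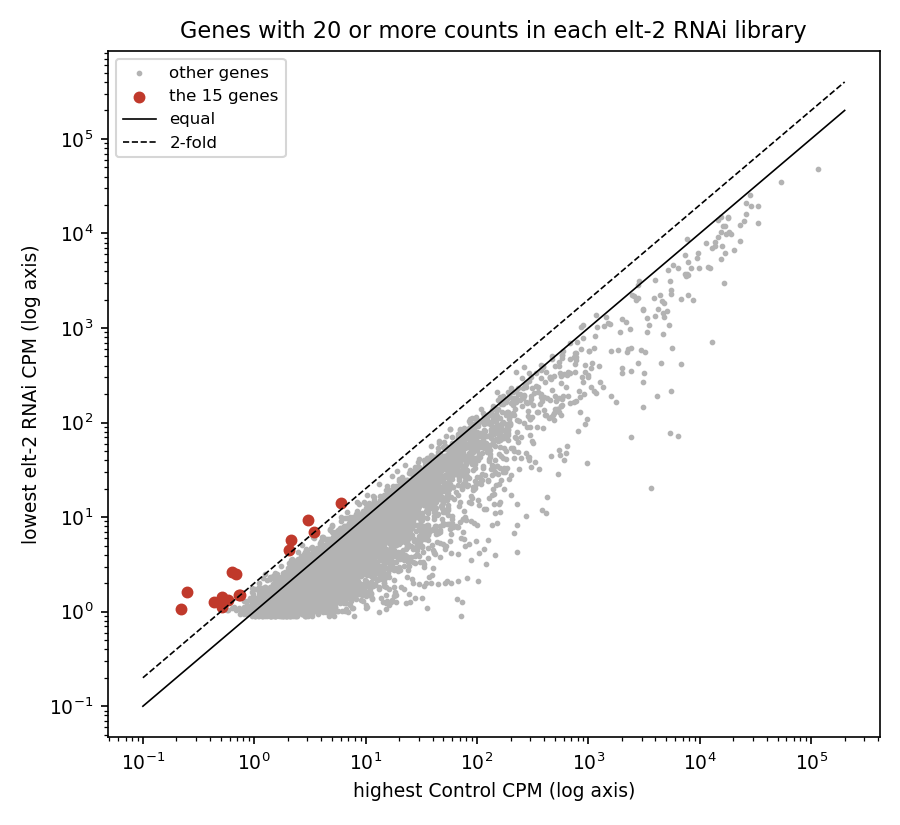
Lowest elt-2 RNAi CPM against highest Control CPM (both log axes) for the 7490 genes with at least 20 counts in each elt-2 RNAi library, with the 15 genes in red; the solid line marks equal values and the dashed line a 2-fold difference. The red points lie above the dashed line, at a highest Control value under 6 CPM, and grey points lie close below it; *clec-197* is drawn with its Control value at the floor.

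Position was not used by the rule. By the annotation 6 of the 15 genes lie on chromosome V, 4 on IV, 3 on II, 1 on I, 1 on X and 0 on III, where each of these chromosomes holds between 13.9% (X) and 18.2% (I) of the matched genes with the count minimum. The 28 genes flanking the set that are not in it included 14 tested by edgeR. Of these, 8 had a positive log2 fold change, with a median of 0.13, and 0 were called. The median of all genes tested was 0.06. In 4 of the 28 all *elt-2* RNAi CPM lay above all Control CPM, beside 10.4% of the 7490 genes with the count minimum. They were *try-10* beside F15B9.6 (ratio 2.25, with 17 counts or fewer per library), *hmg-3* beside *nhr-2* (1.35), F56D6.8 beside *dct-8* (1.09) and *sams-1* beside C49F5.9 (1.00). *hmg-3* lies on the strand of *nhr-2* and had a log2 fold change of 1.21 ± 0.43 (SE).

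None of the 15 genes was on the lists of tissue markers or stress pathways that were examined, which held *dpy-7* and *rol-6* for epidermis, *unc-54* for muscle, *hsp-4* for the endoplasmic reticulum stress response and similar genes. Markers of each main tissue were detected. The counts called in these lists stand beside 0.199% higher and 2.61% lower among all genes tested by edgeR. For intestine, 5 of 15 markers tested were called lower and 0 higher, with a summed level of 133 to 407 CPM in the *elt-2* RNAi libraries and 511 to 883 CPM in the Control libraries. For epidermis, 14 of 15 tested had a positive log2 fold change under TMM and 0 were called, with a summed level of 812 to 2971 CPM in the *elt-2* RNAi libraries and 357 to 1185 CPM in the Control libraries. For body wall muscle, 1 of 12 had a positive log2 fold change and 0 were called. For neurons, 4 of 12 had a positive log2 fold change and 0 were called. In the heat shock list 0 of 9 genes tested were called, and in the lists of the endoplasmic reticulum and mitochondrial unfolded protein responses 0 of 14 and 0 of 9. The epidermal antimicrobial peptides had 0 of 16 called higher and 6 lower. The osmotic and SKN-1 oxidative stress lists had 0 of 10 and 0 of 12 called. At an unadjusted p of 0.05 in edgeR, 1 gene each of the epidermis, muscle, endoplasmic reticulum and osmotic lists was higher. In the neuron, heat shock, mitochondrial, SKN-1, intestine and peptide lists 0 were. Lower at that level were 3 genes each of the neuron and osmotic lists, 1 each of muscle and SKN-1, 8 of intestine and 12 peptides. DESeq2 called 0 higher in all of these lists. It called 1 lower in each of the muscle, neuron and osmotic lists, 7 in intestine and 11 peptides. Further lists also had 0 called higher by edgeR. Called lower were 1 of 11 tested for pharynx, 3 of 5 p38 intestinal immune targets and 3 of 9 fasting and NHR-49 targets. Of moulting genes 15 of 20 tested had a positive log2 fold change, of furrow and structural collagens 14 of 17, with 0 called. For glia, excretory system, germ line, sperm, intracellular pathogen response, hypoxia and GATA factors 0 were called by edgeR. *hrg-2* is a hypodermal gene, and the part of the epidermal markers in its level was not tested.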

How the data were processed

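Whole-worm poly-A RNA of L1 larvae was measured in 6 libraries, 3 *elt-2* RNAi and 3 Control. The authors deposited unnormalized read counts for 20351 genes. The submitters' processing notes name Bowtie 0.12.7. The genome build, annotation, strand setting and counting tool are not given in the sources used here. The WBcel235 annotation, which 19872 identifiers matched, gave names, chromosomes and neighbours only. CPM was the count over the library total. Differences were tested with edgeR 4.0.16 in R 4.3.3 (quasi-likelihood test, TMM, expression filter, Benjamini-Hochberg adjustment over 10063 genes, calls at 0.1). The code was also run on simulated counts that lacked the scaling differences of these libraries, and nothing is read from that run. Standard errors are the log2 fold change over the root of F. The authors' own test was a rank product. Alternatives were DESeq2 1.42.0, other scalings, filters and thresholds, the replicate letter as a block, and each library left out.

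The members and lists were chosen with earlier results of these data known. Named genes were the 12 members with the highest ratio, the 10 with the highest mean *elt-2* RNAi CPM, members on a list or in a family with 3 or more members, the 3 genes on each side of the threshold, and *elt-2*. All others, including the families, were chosen after their values were seen. Total counts ranged between 13700707 and 22124319 per library. The smallest two-sided exact p for 3 libraries per group is 0.1, and permutation tests were not used.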

Additional observations from a re-analysis of the deposited data

How the results depend on the processing

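The number of genes meeting the rule was 15. It was 12 with TMM and 12 with DESeq2 size factors, each sharing 9 with the 15. It moved to 28 with a count minimum of 10, 6 with 50 and 140 with none, and to 67 with a fold of 1.5 and 5 with a fold of 3. Without 1 library it ranged from 18 to 388. A looser rule can only add genes and a stricter one only remove them. Replicate letters recur in both groups. Across genes, deviations of same-letter libraries correlated at 0.32 (A), 0.39 (B) and 0.03 (C). Those of libraries with unlike letters ran from -0.53 (Control B with *elt-2* RNAi A) to 0.31 (Control C with *elt-2* RNAi A). The values for A and B were thus the highest, and that for C was not. Whether the letters mark a pairing is not given, and the main fit did not use them. With the replicate block in the form of a ratio within each letter, 85 genes met the rule. With the replicate block in edgeR, 51 genes were called higher and 444 lower, and 13 of the 15 were called.

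edgeR called 20 genes higher and 263 lower, with 11 of the 15 among those higher. At an adjusted p of 0.05 these were 7, 132 and 5. Library size gave 52 higher and 149 lower, the DESeq2 Wald test 90 and 518, and no filter beyond 1 count 238 and 790. Without 1 library, higher calls ranged from 3 to 63, lower calls from 77 to 520 and called members from 2 to 7. The median log2 fold change of the 15 was 2.10, unchanged with *clec-197* at its bound. It was 2.46 with library size and ranged from 1.92 to 2.21 without 1 library. The causes of these moves were not tested. Of 165 values for single members, 120 kept direction and call, 40 lost the call, 5 gained it and 0 changed sign. The 120 include fits in which *dct-8*, *ugt-21*, *ugt-29* and *praf-3* merely stayed uncalled. All lost calls came from fits that left out 1 library. The rule had already set the direction in these libraries, so the unchanged sign is not read as support. The promoter motif alternatives were not run. Low counts limit the precision: the lowest *elt-2* RNAi library of *clec-197* held 21 counts.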

Other observations

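Outside the set, edgeR's quasi-likelihood test called 9 further genes higher at a false discovery rate of 10%. They were described after their values were seen. *gst-35*, a glutathione S-transferase gene, had 6.68, 5.68 and 2.53 CPM in the *elt-2* RNAi libraries and 1.61, 0.401 and 0.910 CPM in the Control libraries (log2 fold change 2.02, standard error 0.44, adjusted p = 0.0561, edgeR). *dhs-8*, a short-chain dehydrogenase gene, had 7.51, 11.6 and 5.06 CPM in the *elt-2* RNAi libraries and 2.70, 0.752 and 1.99 CPM in the Control libraries (log2 fold change 1.85, standard error 0.43, adjusted p = 0.0693, edgeR). *rnst-2*, which encodes a T2-type ribonuclease, had 5.22, 4.86 and 2.26 CPM against 0.876, 0.451 and 1.19 CPM in the Control libraries (adjusted p = 0.0734, edgeR). *kbp-3*, a kinetochore gene, had 8.42, 11.5 and 4.57 CPM against 2.92, 1.35 and 2.10 CPM in the Control libraries (adjusted p = 0.0937, edgeR). For these 4 genes all *elt-2* RNAi values lay above all Control values, at ratios between 1.56 and 1.89. This held for 10.4% of the 7490 genes with the count minimum, and it is not read as support for genes called on the same libraries.

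Each of the 9 was no longer called without at least 1 of the libraries, T24E12.13 only without *elt-2* RNAi B. The remaining 5 were scarcer or more variable, but their groups did not overlap in CPM either. With Control values under the floor set to the floor, their ratios ran from 1.48 (T28C6.10) to 3.72 (K11D12.13). *fbxb-57*, an F-box gene, had 16, 44 and 25 counts in the *elt-2* RNAi libraries and 5, 4 and 1 in the Control libraries, and K11D12.13 had 18, 17 and 18 against 2, 0 and 1 in the Control libraries. Y43B11AR.3 had 8, 11 and 16 counts against 1 in each Control library, and T24E12.13 had 28, 48 and 14 counts against 1, 1 and 0 in the Control libraries. T28C6.10 had 63, 155 and 31 counts against 13, 11 and 11 in the Control libraries.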
